A study of Saccharomyces cerevisiae with 10 samples.

Results

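Small nucleolar RNAs (snoRNAs) are noncoding RNAs of the nucleolus that modify or cut the precursor of ribosomal RNA. They were taken as every row of the deposited table whose gene name carries the snoRNA type, without NME1, the RNA of RNase MRP. This gave 76 genes among 7032 features. By the class RefSeq gives for 74 of them, with the U3 pair SNR17A and SNR17B added as box C/D RNAs, 47 were of the box C/D class and 29 of the box H/ACA class. Of the 76, 35 were recovered, that is, above 0 in at least 1 library, and 41 were at 0 in all 10 libraries. The box C/D class was thereby almost lost, with 7 of 47 recovered, whereas 28 of 29 box H/ACA RNAs were recovered.

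Each snoRNA works as a ribonucleoprotein. Box C/D RNAs carry Nop1, Nop56, Nop58 and Snu13 and guide 2′-O-methylation of ribosomal RNA, and box H/ACA RNAs carry Cbf5, Nhp2, Nop10 and Gar1 and guide the change of uridine to pseudouridine. A few, among them U3, U14, snR30 and snR10, act in the cleavages that release the precursor of 18S rRNA, and snR4 and snR45 guide acetylation of cytosines by Kre33. In budding yeast most snoRNAs have genes of their own, and others are cut from introns or from transcripts that hold several snoRNAs.

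The libraries came from BY4741, a haploid laboratory strain of mating type a that lacks function of HIS3, LEU2, MET17 and URA3. In 5 libraries the cells were naive, of wild-type genotype with no prion, and in 5 they carried [BIG+], a heritable prion state whose protein, as the study describes it, is the stand-alone pseudouridine synthase Pus4. Per the labels, separate colonies were grown in YPD, a rich medium, in 5 mL starters and then 700 mL cultures at 30 °C to an OD of 1.0, and total RNA was depleted of rRNA. In the labels the naive libraries carry the name stem YDJ128 and the [BIG+] libraries YDJ1952, so the prion state cannot be told apart from any other difference between strains, should the stems be strain names. Genes of a cells were present (STE2 at 286 ± 55.5 and 306 ± 33.3 TPM, SD, n = 5 each, naive and [BIG+]), those of alpha cells were low (STE3 at 0.970 ± 0.301 and 1.20 ± 0.227 TPM), LEU2, MET17 and URA3 were at 0, and HIS3 was not (31.4 and 28.4 TPM). The a-factor genes MFA1 and MFA2, of 111 and 117 bases, were at 0 in all libraries. The TPM value is a level per gene length, scaled so that each library has about the same sum. It keeps no sequencing depth, so the reads behind a value are unknown and no counting interval is given.

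[BIG+] replicate 5 stood apart. Its nuclear rDNA rows summed to 173080 TPM, where those of the other libraries summed to between 6055 and 16805 TPM, and it was the lowest [BIG+] library for 23 of the 35 recovered snoRNAs. Naive replicate 5 was the lowest naive library for 26 of 35. Across all features, replicates 1 and 2 of both states were alike, as were replicates 3 and 4. Main sums, medians and counts are therefore given with and without [BIG+] replicate 5, and from fits that leave out or include replicate number as a block, since the block changes calls.

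Recovery followed gene length with no overlap. The 35 recovered snoRNAs were 164 to 1004 bases long and the 41 at 0 were 78 to 161 bases long, by their RefSeq spans in build R64. The longest that was not recovered, snR161, guides 2 pseudouridines of 18S rRNA, and the shortest recovered box H/ACA RNA, snR49, guides pseudouridines of both subunits. They differ by 4 bases in length (161 and 165) and are shown because they stand on either side of the limit, with the ACA near the 3′ end, which gives the class its name, in capitals. snR161 lies at chrII:307185-307345, minus strand, and snR49 at chrXIV:716120-716284, plus strand (R64, RefSeq).
snR161: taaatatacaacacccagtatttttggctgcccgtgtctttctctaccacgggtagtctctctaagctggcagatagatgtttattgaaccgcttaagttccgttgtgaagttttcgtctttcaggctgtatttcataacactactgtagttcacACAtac
snR49: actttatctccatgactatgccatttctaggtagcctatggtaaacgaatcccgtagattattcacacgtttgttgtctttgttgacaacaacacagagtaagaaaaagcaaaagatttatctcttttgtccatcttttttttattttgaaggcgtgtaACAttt
snR161 was at 0 in all libraries. snR49 was at 14.3, 7.37, 11.1, 2.94 and 2.89 TPM in naive replicates 1 to 5 and at 11.2, 4.47, 2.55, 6.65 and 0 TPM in [BIG+] replicates 1 to 5. It was thus near the bottom of the recovered range in both states, with 1 library at 0.

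The same was seen with a pair cut from 1 transcript. snR190, a box C/D RNA predicted to guide methylation of 25S rRNA, and U14 (snR128), which acts in 18S release and guides methylation at position 414 of 18S rRNA, are made from a shared precursor and lie side by side on the minus strand of chromosome X. They are shown with box C (TGATGA) and box D (CTGA) in capitals. snR190 spans chrX:139761-139950 (190 bases) and U14 spans chrX:139566-139691 (126 bases).
snR190: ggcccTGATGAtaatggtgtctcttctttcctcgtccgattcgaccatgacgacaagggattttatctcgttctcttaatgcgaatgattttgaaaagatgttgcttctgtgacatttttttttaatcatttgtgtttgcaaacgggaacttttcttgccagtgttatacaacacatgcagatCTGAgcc
snR128: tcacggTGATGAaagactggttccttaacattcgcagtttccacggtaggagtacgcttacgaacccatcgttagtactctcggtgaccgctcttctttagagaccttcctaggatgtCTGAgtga
The level of snR190 was 4896 ± 1543 TPM (SD, n = 5) in naive cells and 2786 ± 546 TPM (SD, n = 5) in [BIG+], and U14 was at 0 in all 10 libraries. U14 is essential in yeast, so a row at 0 here is reported as not recovered and not as absent from the cells.

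Motifs were searched on the RNA strand. TGATGA was found in 40 of 47 box C/D genes and 3 of 29 box H/ACA genes (2 and 2 on the other strand). CTGA lay in the last 30 bases of 45 box C/D and 2 box H/ACA genes (4 and 2 on the other strand), and ACA in the last 10 bases of 18 of 29 box H/ACA and 7 of 47 box C/D genes (4 and 3 on the other strand). Box D was found in the last 30 bases of 7 of 7 recovered and 38 of 40 unrecovered box C/D RNAs. Among recovered genes, TGATGA was in 5 of 7 box C/D and 3 of 28 box H/ACA genes. ACA was in the last 10 bases of 4 of 7 recovered box C/D and 17 of 28 recovered box H/ACA genes, so it did not set these apart. A match is a description of letters only.

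Gene structure sorted with length as well. Of 8 snoRNAs inside introns, 2 were recovered, snR191 (274 bases) and snR44 (211 bases), and the other 6 were 78 to 102 bases long. Of 17 in transcripts with several snoRNAs, 2 were recovered, snR190 and snR70 (164 bases). The other features of the table showed the same limit: none of 113 with a RefSeq length of up to 161 bases was above 0, and 5858 of 5882 with at least 164 bases were. The shortest feature above 0 that is no snoRNA, an mRNA, had 162 bases. Among the spliceosomal RNAs, snR14 (160 bases) and snR6 (112 bases) were at 0, as was the short form of U5, snR7-S (179 bases), which lies within the span of snR7-L (214 bases, 11530.0 ± 2142 and 9065 ± 3280 TPM, SD, n = 5 each). The cause of the limit was not tested.

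**Figure D1:**
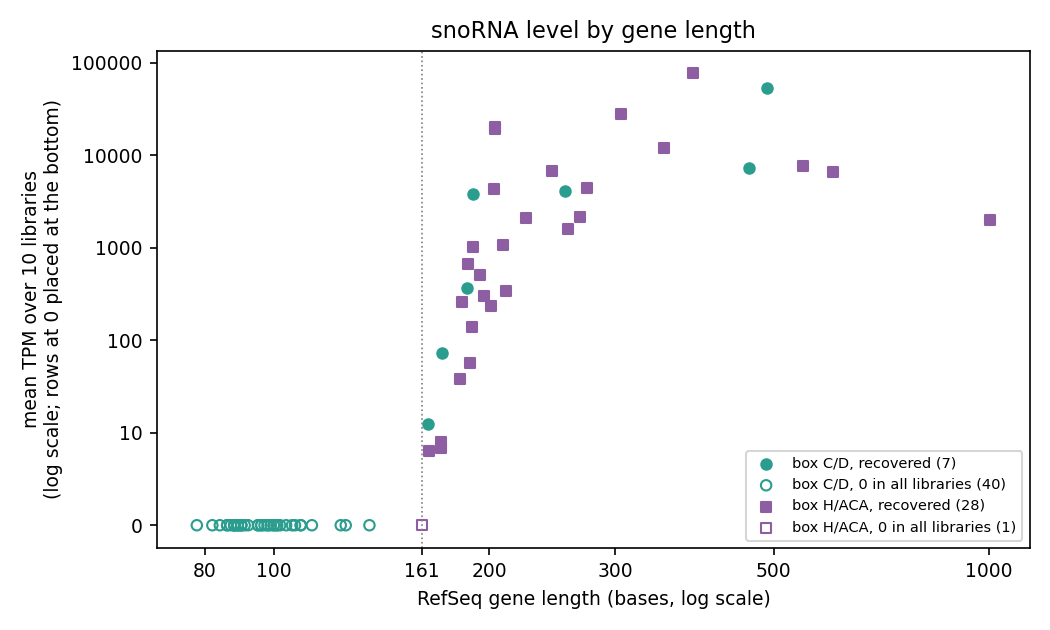
Mean TPM over 10 libraries (y axis, log scale, rows at 0 placed at the bottom) against RefSeq gene length in bases (x axis, log scale) for the 76 snoRNAs, circles for box C/D and squares for box H/ACA, open where at 0. All 41 rows at 0 lie at or left of the dotted line at 161 bases, and levels climb steeply from 164 bases on.

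Among the recovered RNAs, levels per length ran from 6.34 to 76792 TPM and were lowest just past the limit. The 5 snoRNAs under 180 bases had a median level of 7.86 TPM (range 6.34 to 73.4), the 10 from 180 to under 200 bases 335 TPM (38.4 to 3841), the 12 from 200 to under 300 bases 3103 TPM (234 to 20370.1), and the 8 of 300 bases and more 9818 TPM (1994 to 76792). These 8 held 72.2% of all snoRNA TPM. The length bounds were chosen after the values were seen. Of the 35, 32 were above 0 in all 10 libraries, the exceptions being snR49, snR80 and snR85 with 1 library at 0 each.

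A few snoRNAs headed the whole table. snR37, a box H/ACA RNA that guides a pseudouridine at position 2944 of 25S rRNA and acts in the assembly of the large subunit, was the feature of rank 2. snR17a, the main copy of U3, had rank 3, snR83 (18S positions 1290 and 1415) rank 4, snR5 (25S positions 1004 and 1124) rank 5 and snR35 (18S position 1191) rank 6. Together these 5 summed to 218268 ± 18195 TPM (SD, n = 5) in the naive libraries and 177492 ± 44336 TPM (n = 5) in the others. These were 73.6% and 74.3% of the snoRNA sum. Without [BIG+] replicate 5 the [BIG+] sum was 196851 ± 11065 TPM (n = 4).

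Summed over all recovered members, snoRNAs were at 299551, 327523, 292338, 312538 and 250587 TPM in naive replicates 1 to 5 and at 258208, 284670.5, 246765, 267009 and 138114 TPM in [BIG+] replicates 1 to 5. The groups overlapped through naive replicate 5, and [BIG+] replicate 5 was far below all others. The means were 296508 ± 28958 and 238953 ± 58046 TPM (SD, n = 5 each), 29.7% and 23.9% of all TPM, and 264163 ± 15988 TPM in [BIG+] without replicate 5 (n = 4). Per TPM of nuclear mRNA the sum was 0.633 ± 0.0907 and 0.517 ± 0.149, and 0.581 in [BIG+] without replicate 5. These sums are descriptions and were not tested. In bulk RNA, fewer cells with an RNA and less RNA per cell cannot be told apart.

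SnoRNAs from 200 to under 300 bases summed to 84524 ± 18305 TPM (naive) and 49484 ± 13494 TPM ([BIG+]). Those under 200 bases summed to 9142 ± 2489 and 5469 ± 1417 TPM. Without [BIG+] replicate 5 the [BIG+] sums of these 2 groups were 53575 ± 11455 and 5894 ± 1212 TPM. Those of 300 bases and more summed to 202842 ± 9060.0 and 183999.9 ± 47131 TPM, and to 204694 ± 10342 TPM in [BIG+] without replicate 5, which is within the naive spread. Box C/D RNAs, most of whose TPM are U3, summed to 81771 ± 20339 and 55631 ± 16077 TPM (62491 ± 5560 without [BIG+] replicate 5). Box H/ACA RNAs summed to 214736 ± 13211 and 183323 ± 42282 TPM (201672 ± 11786 without [BIG+] replicate 5).

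**Figure D2:**
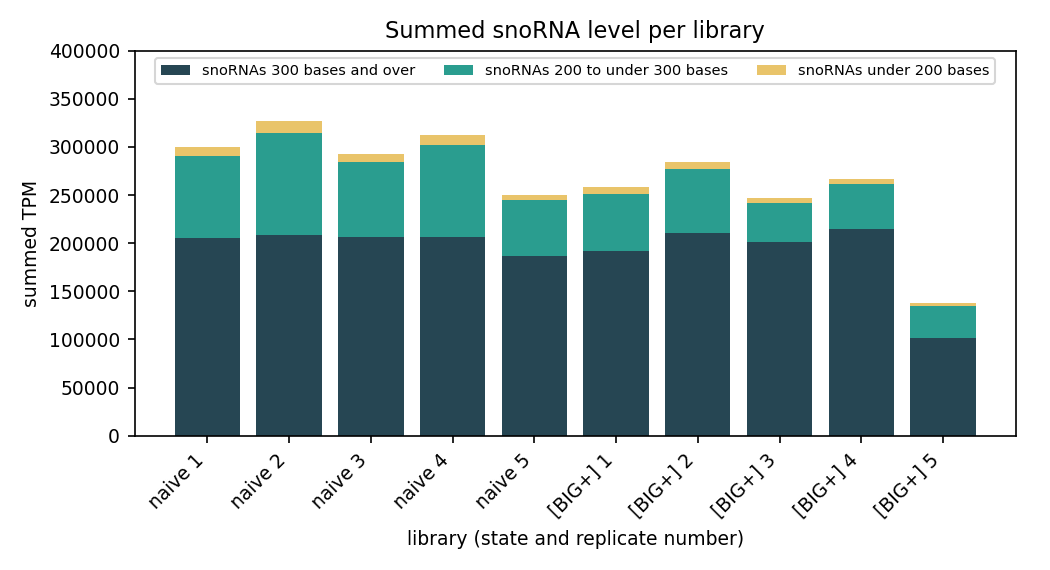
Summed snoRNA TPM (y axis) in each of the 10 libraries (x axis), stacked by gene length. The part of 300 bases and more is between 186759 and 214899.9 TPM in all libraries but one and 101225 TPM in [BIG+] replicate 5. The part from 200 to under 300 bases averages 84524 TPM (naive) and 49484 TPM ([BIG+], 53575 TPM without replicate 5).

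The comparison of the 2 states asked whether snoRNA levels differ with the prion. All 35 recovered snoRNAs passed the filter of a mean of at least 1 TPM and were tested with limma on log2(TPM + 1) among 5732 features, with Benjamini-Hochberg adjustment over all of them. The log2(TPM + 1) scale understates the change of low genes. Without the block, 0 snoRNAs were called higher and 0 lower, as for all features (0% each way), with 24 snoRNAs at an unadjusted p under 0.05 (1.67% of all features), 23 of them lower (1.43%). With the replicate block, 13 of 35 snoRNAs were called lower in [BIG+] cells and 0 higher, against 0.576% of all features called lower and 0.0349% called higher. The 13 were snR4, snR45, snR63 and snR190 of the box C/D class and snR10, snR11, snR34, snR35, snR43, snR46, snR81, snR82 and snR191 of the box H/ACA class. The fit without the block was the main one and that with the block an alternative. The labels do not say that a number marks a pair. Naive replicates 2 and 4 each correlated more with a [BIG+] library of another number. Below, fell stands for called lower with the block, and pair and partner for libraries of the same number.

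The shift was shared by most members. The median log2 fold change of the 35 was −0.63, beside −0.06 over all features, and 29 of 35 were negative, beside 66.3% of all features. In pairs of same-numbered libraries the median was −0.40, −0.61, −0.56, −0.81 and −0.78 for replicates 1 to 5, and 24 of 35 snoRNAs were lower in [BIG+] in 5 of 5 pairs (10.3% of all features). Without [BIG+] replicate 5 the median was −0.44, and in the fit without the block 12 of the 35 log2 fold changes moved by over 1.5 times, among them 1 of the 13 called with the block, snR11. Where such a fold change is printed, its value without that library stands beside it. Box C/D RNAs had a median of −0.59 (6 of 7 negative) and box H/ACA RNAs of −0.64 (23 of 28 negative). Without [BIG+] replicate 5 and without the block these medians were −0.47 and −0.42. The 2 groups of libraries did not overlap for 1 snoRNA, snR36 (0.262% of all features were lower without overlap). When only naive replicate 5 was left out, 17 of 35 were lower without overlap (0.576% of all features). When replicate 5 was left out in both states, 17 were lower and 1, snR30, was higher. In that case 103 of all 5732 features were lower and 63 higher.

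The count of 13 depended on the libraries and the scaling. With the block it was 6, 1, 2, 4 and 11 when replicate 1, 2, 3, 4 or 5 was left out in both states, where 0.262%, 0.0698%, 0.122%, 0.297% and 0.401% of all features were called lower. Without replicate 5, 9 of the 11 were among the 13, and snR32 and snR33 were new. The calls without replicate 1, 2, 3 or 4 were all among the 13. The count was 3 with median-of-ratios scaling (0.227% of all features), 6 with quantile normalization (0.279%) and 14 with a block by the sets of replicate numbers, which shared 12 of the 13 (0.698% of all features). snR4 was past the threshold in all 13 settings of the fit with the replicate block.

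**Figure D3:**
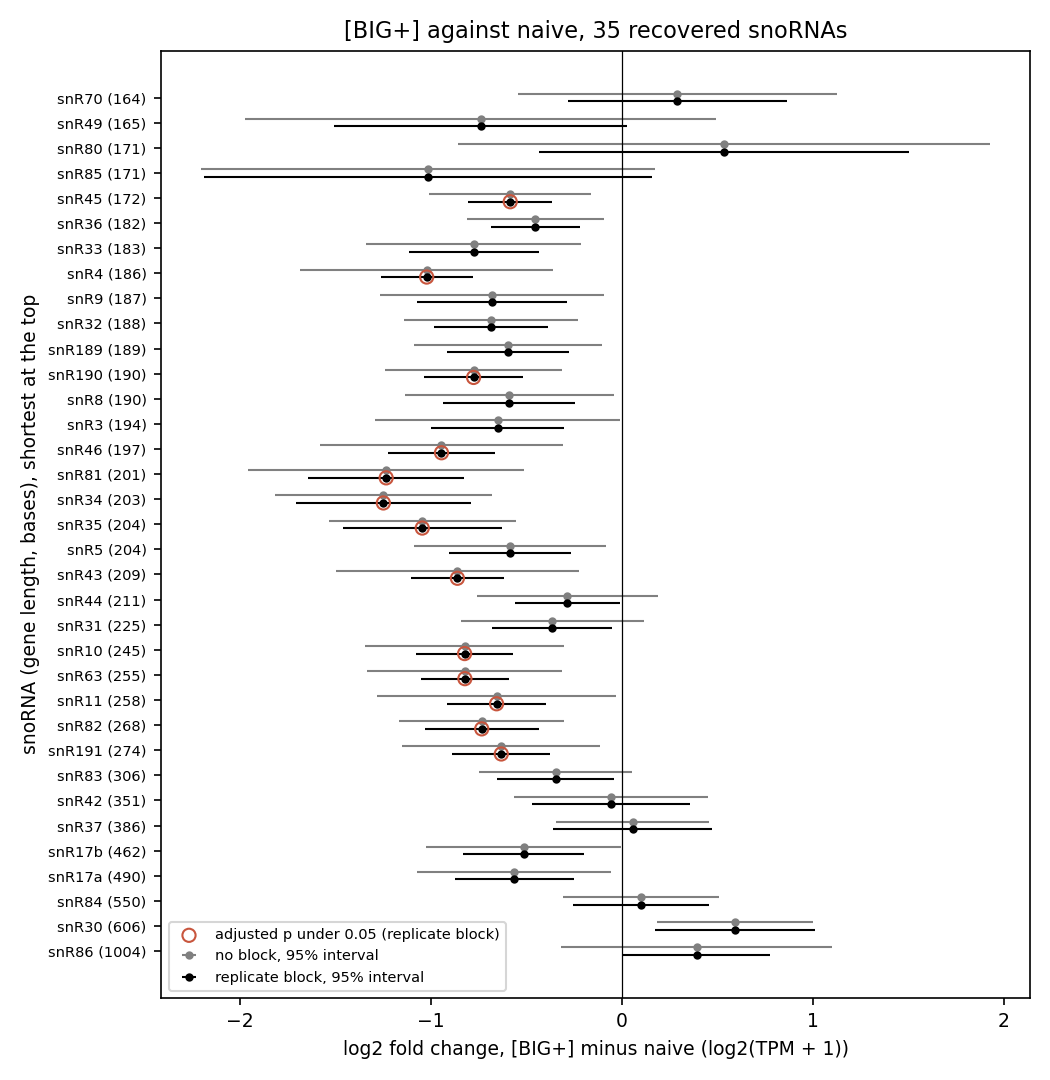
Log2 fold change of [BIG+] against naive (x axis, log2(TPM + 1) scale) for the 35 recovered snoRNAs in order of gene length, points with 95% intervals from limma without the block (grey) and with the replicate block (black). The 13 RNAs with a circle, those with an adjusted p under 0.05 in the fit with the block, are all below 300 bases, and the values at 300 bases and more lie on either side of 0.

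Among the RNAs of 18S release, with all libraries and the filter of 1 TPM, snR10 fell with the block. There U3 did not pass, and snR30 had a positive log2 fold change that did not pass either. snR10 (chrVII:345986-346230, plus strand), which also guides a pseudouridine at position 2923 of 25S rRNA, was at 9402, 11875, 7898, 9224 and 5175 TPM in naive replicates 1 to 5 and at 5860.4, 7369, 3654, 4494 and 3408 TPM in [BIG+] replicates 1 to 5. Every [BIG+] library was below its naive partner, and the groups overlapped only through naive replicate 5. Its log2 fold change was −0.82 ± 0.114 (SE) in limma with the block, with an adjusted p of 0.0139 (0.00294 to 0.0843 over 13 settings of that fit), and its adjusted p without the block was 0.999. snR10 overlaps the dubious open reading frame YGL088W, whose log2 fold change was −0.77 ± 0.115 with an adjusted p of 0.0184 in limma with the block. The ratio of snR10 to YGL088W was 3.70 to 5.42 in all libraries, and reads of the 2 rows may not be separable.

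U3 is encoded by 2 genes, SNR17A (490 bases, chrXV:780107-780596, plus strand) and SNR17B (462 bases, chrXVI:281056-281517, minus strand), which were 86.3% identical over 461 aligned bases, so how reads were shared between them is uncertain. In yeast both genes hold an intron, so the spans are longer than the mature RNA. snR17a was at 62179.7, 84562, 52208, 68712 and 45729 TPM in naive and at 44412, 54580.4, 48429, 49304 and 21166 TPM in [BIG+] replicates 1 to 5. snR17b was at 8469, 11168, 6621, 9363 and 6427 TPM in naive and at 6336, 7794, 6499, 6464 and 3044 TPM in [BIG+] replicates 1 to 5. The copies moved together, with snR17a between 6.95 and 7.89 times snR17b in every library, and both were lower in [BIG+] in 5 of 5 pairs. Their log2 fold changes in limma with the block were −0.56 ± 0.140 and −0.52 ± 0.142 (SE), with adjusted p of 0.174 and 0.227 (0.0465 to 0.500 and 0.0941 to 0.469 over 13 settings), and 0.999 for both without the block. Without [BIG+] replicate 5 and without the block they were −0.32 ± 0.157 and −0.29 ± 0.167. At the filter of 1 TPM U3 therefore did not pass. snR17a passed in 1 setting with the block, the filter at 10 TPM. In [BIG+] replicate 5 both copies were at their lowest of all 10 libraries.

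snR30, a box H/ACA RNA that is essential for 18S release and guides no modification, had a positive log2 fold change. It is shown because it is the member with the largest positive change, by its last 120 bases (chrXII:199270-199389, plus strand, of a gene of 606 bases), with the closing ACA in capitals.
snR30: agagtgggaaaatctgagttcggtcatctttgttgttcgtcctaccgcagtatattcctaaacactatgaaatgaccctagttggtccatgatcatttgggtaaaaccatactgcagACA
snR30 was at 4119, 4052, 6239.9, 4596 and 7166 TPM in naive replicates 1 to 5 and at 6994, 8172, 8019, 9989 and 5823 TPM in [BIG+] replicates 1 to 5. It was higher in [BIG+] in replicates 1 to 4 and lower in replicate 5, where the naive library was the highest naive one. Its change was 0.59 ± 0.188 (log2, SE) in limma with the block, with an adjusted p of 0.302 (0.0392 to 0.658 over 13 settings), and 0.999 without the block. Without replicate 5 in both states its change was 0.81, with an adjusted p of 0.0392 in limma with the block (0.122% of all features were called higher). The ratio of snR30 to snR10 within each library was 0.438, 0.341, 0.790, 0.498 and 1.38 in naive and 1.19, 1.11, 2.19, 2.22 and 1.71 in [BIG+] replicates 1 to 5. It was higher in [BIG+] in 5 of 5 pairs, and naive replicate 5 lay within the [BIG+] range. snR30 was picked for its positive change and snR10 was called lower. A higher ratio follows from that choice and is no separate result.

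Both guides of cytosine acetylation fell with the block. snR4 directs Kre33 to position 1280 of 18S rRNA and snR45 directs it to position 1773. snR4 (chrV:424698-424883, plus strand) is shown because its call held in every setting of the fit with the block, with box D in capitals (TGATGA was not found in it).
snR4: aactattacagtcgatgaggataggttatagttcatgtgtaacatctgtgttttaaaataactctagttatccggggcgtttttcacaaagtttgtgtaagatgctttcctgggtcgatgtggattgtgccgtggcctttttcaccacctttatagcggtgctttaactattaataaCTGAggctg
It was at 483, 821, 402, 529 and 245 TPM in naive replicates 1 to 5 and at 277, 365, 192, 216 and 141 TPM in [BIG+] replicates 1 to 5. Each [BIG+] library was below its naive partner, while naive replicate 5 lay within the [BIG+] range. Its log2 fold change was −1.02 ± 0.108 (SE) in limma with the block, with an adjusted p of 0.00412 (0.000523 to 0.0329 over 13 settings), and −1.02 ± 0.308 with an adjusted p of 0.999 without it. snR45 (chrXVI:821732-821903, plus strand, 172 bases) was lower in level, at 97.9, 88.4, 104.9, 92.1 and 59.0 TPM in naive and 55.2, 68.0, 64.4, 62.4 and 41.9 TPM in [BIG+] replicates 1 to 5. Again only naive replicate 5 overlapped with the [BIG+] libraries. Its log2 fold change was −0.59 ± 0.0988, with an adjusted p of 0.0369 in limma with the block (0.00749 to 0.185 over 13 settings) and 0.999 without it, and it was not called when replicate 5 was left out in both states.

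Of the 3 recovered box C/D RNAs that guide or are predicted to guide methylation, snR63 and snR190 fell with the block and snR70 did not pass. snR63 (255 bases, chrIV:323217-323471, minus strand) guides methylation at position 2256 of 25S rRNA and is shown as the longest recovered RNA of this kind, with boxes C and D in capitals.
snR63: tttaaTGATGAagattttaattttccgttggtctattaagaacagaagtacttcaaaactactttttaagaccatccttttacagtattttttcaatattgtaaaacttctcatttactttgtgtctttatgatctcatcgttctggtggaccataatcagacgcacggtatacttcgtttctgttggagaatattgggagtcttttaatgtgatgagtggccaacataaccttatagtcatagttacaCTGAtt
snR63 was at 5034, 7412, 4462, 5789.9 and 3263 TPM in naive replicates 1 to 5 and at 3264, 3965, 2794, 2876 and 1745 TPM in [BIG+] replicates 1 to 5, and its log2 fold change was −0.82 ± 0.104 (SE) with an adjusted p of 0.0116 in limma with the block (0.00219 to 0.0536 over 13 settings). snR190, shown above, was at 4603, 6995, 3965, 5833 and 3083 TPM in naive and 2949, 3555, 2682, 2706 and 2039 TPM in [BIG+] replicates 1 to 5. For both RNAs naive replicate 2 was the highest library and [BIG+] replicate 5 the lowest. The log2 fold change of snR190 was −0.78 ± 0.116, with an adjusted p of 0.0184 in limma with the block (0.00441 to 0.0883 over 13 settings). Without the block the adjusted p was 0.999 for snR63 and 0.947 for snR190. snR70, predicted to guide methylation at position 1639 of 18S rRNA, was between 4.50 and 25.1 TPM in all libraries, with a log2 fold change of 0.29 ± 0.257 and an adjusted p of 0.689 in limma with the block.

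Among the box H/ACA guides, snR34, snR81 and snR35 had the most negative changes. snR34 guides pseudouridines at positions 2826 and 2880 of 25S rRNA, and snR35 is predicted to guide that at position 1191 of 18S rRNA, a base that is modified further. snR34 lies at chrXII:899180-899382, plus strand, and snR35 at chrXV:759326-759529, minus strand. They are shown because snR34 had the most negative log2 fold change and snR35 was the most abundant RNA that fell, with the ACA near the 3′ end in capitals.
snR34: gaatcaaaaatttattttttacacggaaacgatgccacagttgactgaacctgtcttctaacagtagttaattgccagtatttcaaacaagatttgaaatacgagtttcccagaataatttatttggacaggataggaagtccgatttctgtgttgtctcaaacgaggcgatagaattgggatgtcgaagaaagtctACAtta
snR35: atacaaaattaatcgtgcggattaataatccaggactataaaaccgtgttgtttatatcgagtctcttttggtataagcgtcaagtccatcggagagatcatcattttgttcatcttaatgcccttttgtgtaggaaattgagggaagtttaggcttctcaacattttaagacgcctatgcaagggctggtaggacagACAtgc
snR34 was at 4747, 7238, 6722, 8187 and 3668 TPM in naive replicates 1 to 5 and at 2863, 4293, 1705, 2147 and 2025 TPM in [BIG+] replicates 1 to 5. snR35 was at 26117, 31266, 25726, 30476 and 16561 TPM in naive and at 15666, 18769.9, 8379.5, 9423 and 12158 TPM in [BIG+] replicates 1 to 5. For both, all naive libraries but replicate 5 were above all [BIG+] libraries. The log2 fold change was −1.25 ± 0.205 (SE) for snR34 and −1.05 ± 0.187 for snR35, with adjusted p of 0.0316 and 0.0436 in limma with the block (0.0043 to 0.115 and 0.00685 to 0.218 over 13 settings). Without the block the adjusted p was 0.387 for snR34 and 0.413 for snR35, the lowest of all snoRNAs, and without [BIG+] replicate 5 the [BIG+] means were 2752 and 13059.7 TPM beside 2606 and 12879 TPM with it.

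snR81 guides a pseudouridine at position 1052 of 25S rRNA and also those at positions 42 and 93 of the spliceosomal RNA LSR1, which RefSeq describes as constitutive and stress-induced. It was at 303, 458, 324, 345 and 179.9 TPM in naive and at 178, 262, 71.5, 136 and 83.2 TPM in [BIG+] replicates 1 to 5. The lowest 3 libraries were [BIG+] replicates 3, 5 and 4. Its log2 fold change was −1.24 ± 0.184 (SE), with an adjusted p of 0.0184 in limma with the block (0.0022 to 0.0855 over 13 settings) and 0.947 without it. LSR1 itself was at 8618 ± 1864 TPM (naive) and 10463 ± 2414 TPM ([BIG+], SD, n = 5 each). The log2 fold change of LSR1 was 0.27 ± 0.177, with an adjusted p of 0.592 in limma with the block. Without [BIG+] replicate 5 and without the block it was 0.43 ± 0.152.

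Of the other box H/ACA guides that fell, snR46, snR43, snR11, snR82 and snR191 all act on 25S rRNA, apart from snR43, which also guides a site in 5.8S rRNA. snR46 (position 2865) was at 406, 626, 336, 477 and 182 TPM in naive and 243, 252, 174, 208 and 125 TPM in [BIG+] replicates 1 to 5. snR43 (position 966) was at 1321, 2097, 1167, 1586 and 772 TPM in naive and 928, 1045, 657, 838 and 372 TPM in [BIG+] replicates 1 to 5. Both had their highest level in naive replicate 2 and their lowest in [BIG+] replicate 5, and changed by −0.95 ± 0.126 and −0.86 ± 0.109 (log2, SE), with adjusted p of 0.0122 and 0.0116 in limma with the block (0.00219 to 0.0763 and 0.00219 to 0.0699 over 13 settings). snR11 (position 2416) was at 1993, 2755, 1506, 2294 and 1139.7 TPM in naive and 1544, 1722, 1111, 1261 and 595 TPM in [BIG+] replicates 1 to 5. snR82 (positions 1110, 2349 and 2351) was at 1779, 3438, 2105, 3208 and 2963 TPM in naive and 1350.2, 2027, 1521, 1330.5 and 1729.8 TPM in [BIG+] replicates 1 to 5. snR82 differed from snR46, snR43 and snR11 in that neither replicate 5 was the lowest of its state. snR11 and snR82 changed by −0.66 ± 0.116 and −0.73 ± 0.134, with adjusted p of 0.041 and 0.0459 in limma with the block (0.0117 to 0.153 and 0.0117 to 0.132 over 13 settings), and both were among the calls lost when replicate 5 was left out in both states. Without [BIG+] replicate 5 and without the block snR11 was at −0.41 ± 0.241.

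snR191, cut from an intron of NOG2 (positions 2258 and 2260 of 25S rRNA, chrXIV:721938-722211, minus strand), was at 5840.1, 7360.1, 4122, 6152 and 3596 TPM in naive and 4269, 4378, 3331, 3587 and 1962 TPM in [BIG+] replicates 1 to 5. Its log2 fold change was −0.63 ± 0.115 (SE), with an adjusted p of 0.0459 in limma with the block (0.0136 to 0.186 over 13 settings), and it was not called without replicate 5 in both states. NOG2, a GTPase of large subunit assembly, was between 17.9 and 33.7 TPM over all libraries, so the RNA of the intron was between 67.3 and 293 times the level of its host. snR44, in an intron of RPS22B, was at 369.6 ± 88.3 and 305 ± 75.0 TPM beside 266 ± 121 and 259 ± 60.0 TPM of its host, and did not pass (log2 fold change −0.29 ± 0.123, adjusted p = 0.420 in limma with the block, and −0.12 ± 0.185 without [BIG+] replicate 5 and the block). Of the 8 host genes of intronic snoRNAs, 0 were called in either fit. Of all features, 0% were called without the block, and 0.576% lower and 0.0349% higher with it.

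**Figure D4:**
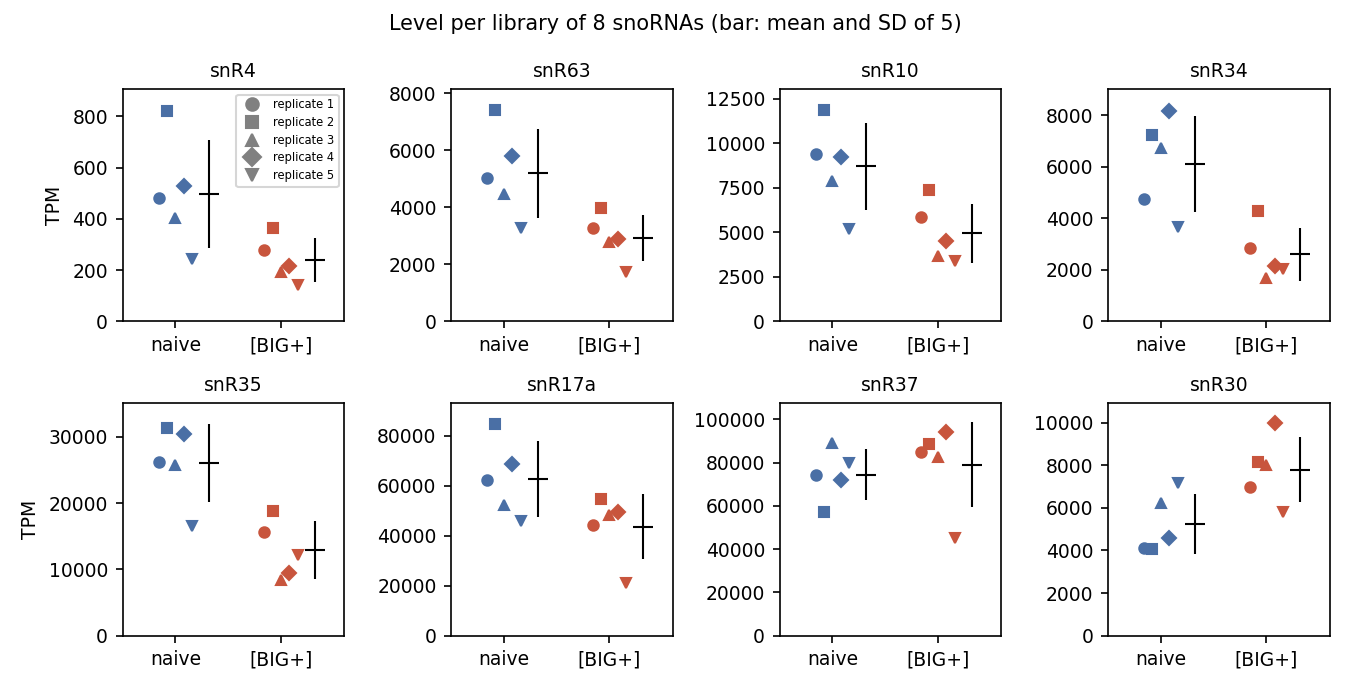
TPM (y axis, from 0) of 8 snoRNAs in naive and [BIG+] libraries (x axis), each point a library with its shape giving the replicate number, and the bar the mean and SD of 5. snR4, snR63, snR10, snR34, snR35 and snR17a are lower in [BIG+] in every pair, and snR30 is higher in 4 of 5 pairs. The groups overlap for all 8 RNAs.

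The members with the highest levels did not all follow. snR37, shown by its last 120 bases (chrX:228094-228213, minus strand) as the most abundant snoRNA, with the ACA in capitals, was at 74498, 57019, 88859, 71915 and 79999.8 TPM in naive and at 84686, 88734, 82823, 94337 and 45049 TPM in [BIG+] replicates 1 to 5.
snR37: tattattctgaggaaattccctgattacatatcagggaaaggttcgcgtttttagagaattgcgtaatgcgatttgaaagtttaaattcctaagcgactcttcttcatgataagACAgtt
The groups overlapped, and only [BIG+] replicate 5 was below the naive range. The log2 fold change was 0.06 ± 0.187 (SE, 95% interval −0.36 to 0.47, adjusted p = 0.926 in limma with the block), and its sign turned when naive replicate 2 or [BIG+] replicate 4 was left out. Without [BIG+] replicate 5 and without the block it was 0.25 ± 0.119. snR83 was at 34804, 32748, 30284, 31096 and 26479 TPM in naive and at 26931, 29051, 29399, 26726 and 13838 TPM in [BIG+] replicates 1 to 5, lower in 5 of 5 pairs, with a log2 fold change of −0.35 ± 0.137 and an adjusted p of 0.387. snR5 was at 25349, 28755, 21959, 25448 and 18592 TPM in naive and at 21116, 20100.5, 15920.2, 18615 and 7846 TPM in [BIG+] replicates 1 to 5, with −0.59 ± 0.143 and an adjusted p of 0.157. Neither passed in limma at the filter of 1 TPM, with or without the block. Over 13 settings of the fit with the block the adjusted p was 0.288 to 0.782 for snR83 and 0.0454 to 0.790 for snR5, which passed in 1, the filter at 10 TPM. Without [BIG+] replicate 5 and without the block the log2 fold changes were −0.14 ± 0.102 for snR83 and −0.34 ± 0.138 for snR5. The ratio of snR37 to snR35, again within each library, was 1.82 to 4.83 in naive and 3.71 to 10.01 in [BIG+] libraries, higher in [BIG+] in replicates 1 to 4 and lower in replicate 5. As snR35 was among the RNAs called lower, this ratio is no separate result either.

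snR86, the longest snoRNA (1004 bases, position 2314 of 25S rRNA), was at 854, 970.2, 2305, 1875 and 2977 TPM in naive and at 1383, 1708, 2412, 3135 and 2315 TPM in [BIG+] replicates 1 to 5. Its level followed the replicate number more than the state, with replicates 1 and 2 low in both, and its log2 fold change was 0.39 ± 0.173 (SE, adjusted p = 0.433 in limma with the block). snR80, at the length limit (171 bases), was at 15.2, 2.62, 0, 3.92 and 8.98 TPM in naive and at 11.6, 10.9, 4.53, 1.18 and 9.15 TPM in [BIG+] replicates 1 to 5. These values scattered within each state, and its log2 fold change of 0.54 ± 0.435 did not pass (adjusted p = 0.659 in limma with the block). In the fit without the block it turned to −0.04 when naive replicate 3 was left out. With the block it was 0.05 or more in 12 settings. snR36 (position 1187 of 18S rRNA), the snoRNA whose groups did not overlap, was at 36.9, 49.6, 44.0, 43.3 and 48.6 TPM in naive and 31.4, 36.0, 34.0, 24.2 and 36.1 TPM in [BIG+] replicates 1 to 5. It was lower by a small margin, and its log2 fold change of −0.45 ± 0.104 did not pass (adjusted p = 0.125 in limma with the block). With the block and the filter at 10 TPM it was called lower.

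The members were also set out by gene length. Of 15 snoRNAs under 200 bases, 4 fell with the block and 13 had a negative log2 fold change, with a median of −0.68. Of 12 from 200 to under 300 bases, 9 fell and all 12 were negative, with a median of −0.78, and of 8 with 300 bases or more 0 fell and 4 were negative, with a median of −0.00055. With the block 0.576% of all features were called lower. Messenger RNAs of the same lengths had 0, 2 and 16 called lower with the block, and had medians of −0.03 (27 genes), −0.07 (128) and −0.06 (5129), with 59.3%, 68.0% and 66.3% negative. In pairs 1 to 5 the median difference was −0.40, −0.61, −0.92, −0.85 and −0.42 under 200 bases and −0.48, −0.74, −0.57, −0.96 and −0.87 from 200 to under 300 bases, so that neither group was the lower in all pairs. At 300 bases and more it was 0.05, 0.26, 0.00092, 0.37 and −0.88. Without [BIG+] replicate 5 the snoRNA medians were −0.51, −0.64 and 0.23, so that of the longest group was positive. Under median-of-ratios scaling and quantile normalization its median was also above 0, at 0.07 and 0.09, with 3 of 8 negative. The bounds of 200 and 300 bases were chosen with the values in view, and no test of the difference between the length groups was made.

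Other noncoding RNAs chosen by name, NME1, snR7-L, RPR1, SCR1 and snR19, were set beside the snoRNAs by their length. None of these passed in either fit. NME1 (340 bases), the RNA of RNase MRP, had a log2 fold change of −0.55 ± 0.115 (SE, limma with the block, adjusted p = 0.0949). snR7-L (U5, 214 bases) had −0.44 ± 0.159 (adjusted p = 0.353). RPR1, the RNA of RNase P (369 bases), had 0.06 ± 0.146 (adjusted p = 0.894 in limma with the block). SCR1, the RNA of the signal recognition particle (522 bases), had 0.24 ± 0.139, and snR19 (U1, 568 bases) had −0.04 ± 0.129. Their adjusted p in that fit were 0.562 and 0.922. Without [BIG+] replicate 5 and without the block, NME1 was at −0.35 ± 0.134 and snR7-L at −0.13 ± 0.153. RPR1 was then at 0.22 ± 0.110, SCR1 at 0.40 ± 0.123 and snR19 at 0.09 ± 0.107.

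**Figure D5:**
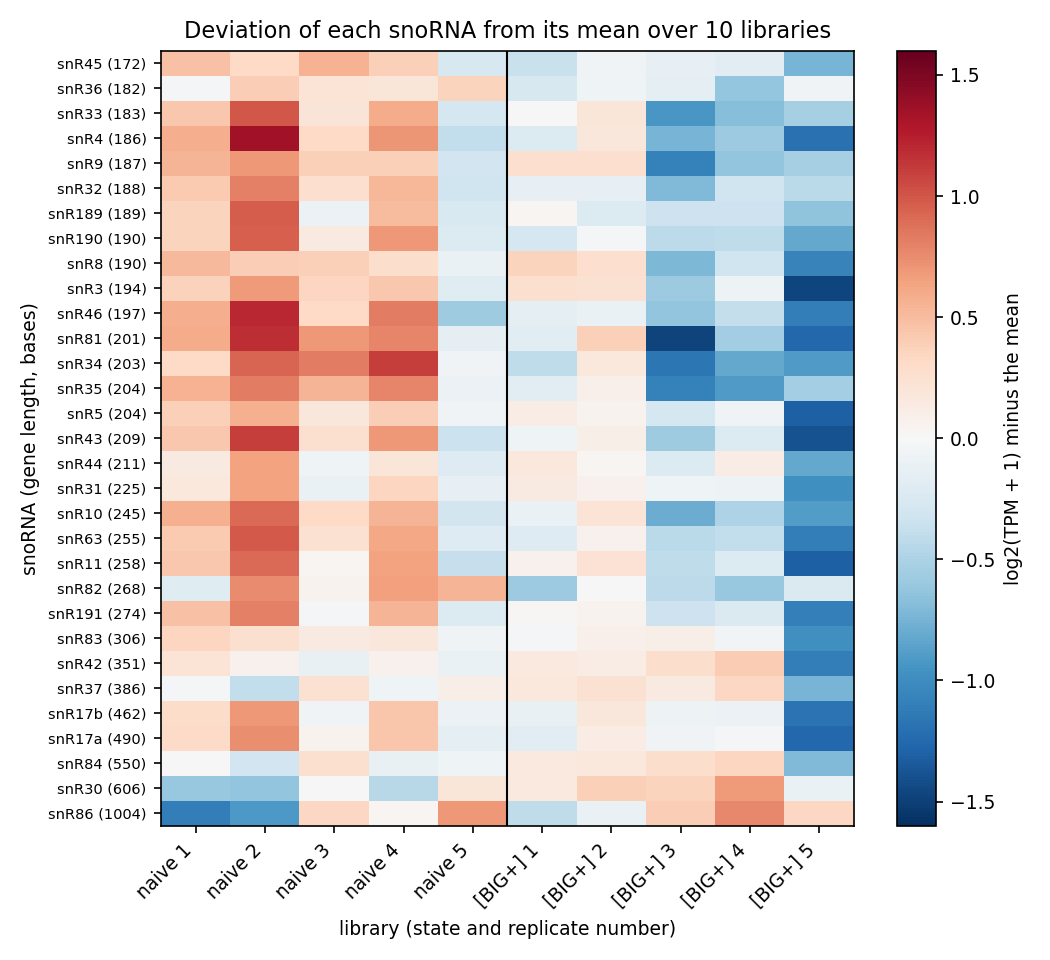
Difference of log2(TPM + 1) in each library (x axis, naive and [BIG+] replicates 1 to 5) from the mean over 10 libraries, as colour, for the recovered snoRNAs with a mean of at least 20 TPM in order of gene length (y axis). Naive replicates 1, 2 and 4 are high and [BIG+] replicate 5 is low for most RNAs, and of the 8 RNAs of 300 bases and more, at the bottom, snR17a, snR17b and snR83 are lower in [BIG+] in 5 of 5 pairs.

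The proteins that bind, build and process snoRNAs had no gene past the threshold. The lists held 76 genes for the box C/D and box H/ACA core proteins, assembly factors, transcription termination and 3′ processing, the nuclear exosome, the U3 particle and the hosts of intronic snoRNAs. Of these, 75 were tested and BCD1, an assembly factor, was below the filter. None of the 75 was called higher or lower in either fit. Of all features, 0% were called each way without the block, and 0.576% lower and 0.0349% higher with it. At such shares, 0 calls among 75 genes say little about these genes. Of the 75, 48 were negative (66.3% of all features). Their median log2 fold change was −0.03 (−0.06 over all features), with a range of −0.29 to 0.14. CBF5, the pseudouridine synthase of box H/ACA particles, was at 29.6 TPM (naive) and 33.1 TPM ([BIG+]) (log2 fold change 0.10, adjusted p = 0.800), and NOP1, the methyltransferase of box C/D particles, was at 42.0 ± 11.5 and 47.3 ± 17.9 TPM (0.12, adjusted p = 0.788 in limma with the block).

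The most abundant gene of each list showed the size of these differences. SNU13, which binds box C/D RNAs and U4, was at 339 ± 111 and 316 ± 83.9 TPM (SD, n = 5 each, naive and [BIG+]), and NOP10, the smallest box H/ACA protein, at 503 ± 123 and 494 ± 127 TPM. TAH1, a cochaperone of particle assembly, was at 69.2 ± 11.3 and 70.0 ± 11.6 TPM, and LHP1, which binds the 3′ ends of new RNAs, at 32.9 ± 5.72 and 35.8 ± 6.20 TPM. RRP40 of the exosome was at 21.6 ± 5.47 and 23.2 ± 6.42 TPM, UTP10 of the U3 particle at 23.4 ± 5.15 and 23.6 ± 4.27 TPM, and ASC1, host of an intronic snoRNA, at 3754 ± 326 and 3922 ± 305 TPM. All of these means differed by less than 1 SD. The lowest adjusted p of the lists, in limma with the block, was 0.364 for PCF11, a termination factor (log2 fold change −0.22). Termination and 3′ processing was the list with the most members negative, 17 of 19, with a median of −0.095. It is named as the extreme of the lists, and 66.3% of all features were negative, with a median of −0.06.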

How the data were processed

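Total RNA of 10 yeast cultures was sequenced after RiboZero depletion, per the labels' protocols. The authors deposited 1 table of TPM values per gene and library. Bowtie2, HTSeq and build R64 are named in the submitters' processing notes. Not given in the sources used here are their versions, the annotation, the gene lengths and the use of strand. Overlapping and near-identical genes are therefore uncertain. The 4 emptied lines were left out. Library totals were 999963 to 999982 TPM.

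Gene lengths, classes, targets and sequences came from RefSeq (R64), in which all 76 members were found. log2(TPM + 1) was fitted with limma (3.58.1, R 4.3.3) over features with a mean of at least 1 TPM (trend, two-sided, threshold 0.05), with prion state as the term. Same-numbered libraries' deviations from their group means correlated at 0.743, 0.569, 0.531, 0.355 and 0.474. As all were above 0.1, the replicate number was also fitted as a block, as an alternative to the fit without it. The libraries 1 and 2, and 3 and 4, correlated across numbers as well. Naive replicate 2 correlated at 0.645 with [BIG+] replicate 1, above its same-numbered value. Naive replicate 4 correlated at 0.460 with [BIG+] replicate 3, also above its same-numbered value. For naive replicates 1, 3 and 5 the same-numbered value was the highest. The correlations thus do not single out pairs by number. Settings tried were the pseudocount, the filter, the scaling, libraries left out, and blocks by number and by set. The steps were tested on simulated data in which libraries were independent. That test does not cover the block fit under the correlations between libraries seen here. Tables and figures were made with Python (3.11.15), pandas (2.3.3) and matplotlib (3.10.9).

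Members described in every library were those past the threshold in either fit, the RNAs of pre-rRNA cleavage, the 3 most abundant of each class and the 3 with the largest and smallest log2 fold change. snR36, snR49 and snR70 were added after their values were seen. Members and lists were chosen with earlier results of these data known. Errors of levels are SD and those of fold changes SE.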

Additional observations from a re-analysis of the deposited data

Results flagged for a closer look

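Within-group spread was checked for 54 groups of 5 libraries (named snoRNAs and sums, by state), and 7 had a library whose gap to the nearest other, as a share of the range, was above the critical value of 0.71. Chance gives about 1 in 20 for independent groups, which these are not. They share libraries, and the sums hold the named snoRNAs and one another. The 7 are therefore not separate findings, and each lies in replicate 5 of its state. In [BIG+], replicate 5 was the low library for snR37 (45049 TPM), for snR83 (13838 TPM), for the sum of all snoRNAs (138114 TPM), for the box H/ACA sum (109924 TPM) and for the sum of the snoRNAs of 300 bases and more (101225 TPM). In naive cells, replicate 5 was the low library for the box H/ACA sum (191775 TPM) and for the sum of the snoRNAs of 300 bases and more (186759 TPM). [BIG+] replicate 5 was also the library with 173080 TPM in nuclear rDNA rows, and naive replicate 5, at 16805 TPM, was the next highest in them. The part of these rows in the snoRNA values was not tested.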

How the results depend on the processing

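Of 670 values of 21 named snoRNAs under 32 alternatives, 539 kept their direction and side of the threshold, 126 passed it and 5 reversed. These were snR37 (−0.036 without naive replicate 2, −0.018 without [BIG+] replicate 4, and with the replicate block −0.088 and −0.027 without replicate 2 or 4) and snR80 (−0.039 without naive replicate 3). With 1 replicate left out, snR37 ran from −0.036 to 0.25 without the block and from −0.088 to 0.28 with it, and snR80 from −0.039 to 0.97. The numbers may mark sets of cultures and not pairs, which the labels do not say.

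snoRNAs called lower numbered 0 without the block under every scaling, pseudocount, filter and left-out library. With the replicate block they numbered 13, with a pseudocount of 0.1 13 and of 10 11, without the filter 6, with the filter at 10 TPM 20, with median-of-ratios scaling 3, with scaling to nuclear mRNA 13 and with quantile normalization 6. The set block gave 14, and 12 without [BIG+] replicate 5. Leaving out 1 replicate gave 0 without the block and 1 to 11 with the replicate block. snoRNAs called higher numbered 1, snR30, with the block when replicate 5 was left out (range 0 to 1) and with the set block without [BIG+] replicate 5.

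All features called lower without the block numbered 0, and 1 with the filter at 10 TPM, 3 with median-of-ratios scaling, 3 with scaling to nuclear mRNA and 3 with quantile normalization. With the replicate block they numbered 33 lower and 2 higher, and in the order of settings above 30 and 2, 28 and 3, 15 and 2, 48 and 6, 13 and 1, 32 and 2, and 16 and 1. The set block gave 40 and 3, and 29 and 12 without [BIG+] replicate 5. Leaving out 1 replicate gave 0 lower and 0 higher without the block, and 4 to 23 lower (at most 17 with replicate 5 kept) and 0 to 7 higher with it.

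The median log2 fold change of the snoRNAs was −0.56 to −0.63 under the scalings, pseudocounts and filters, and with 1 replicate left out −0.73 to −0.44, the latter without [BIG+] replicate 5. The genes of snoRNA proteins gave 0 calls under all settings, beside the low counts for all features given above. The causes were not tested. The depth behind the values is unknown.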
